A study of Mus musculus with 4 samples.

Results

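Gata3 and 9 transcription factors that act with it in T helper 2 (Th2) cells were followed in lung Th2 cells of mice that carry or lack Klrg1Cre on a floxed Gata3 background. The 10 genes were picked by symbol for their known roles, with earlier results of these data known. All 10 were found among the 11883 genes of the authors' deposited table, so that 0 members were missing. The Klrg1Cre Gata3(fl/fl) group carries a Cre recombinase named for Klrg1 together with Gata3 alleles that Cre can cut, and is called Klrg1Cre below. The other group, Gata3(fl/fl), has the same floxed alleles without Cre and is called control. Both groups hold 2 samples from C57BL/6 mice under chronic treatment with papain, a protease of papaya used to set off airway allergy, and live CD4+ cells with surface T1/ST2, the interleukin-33 receptor, were sorted from digested lung. The animals' age and sex, the cells that express the Cre and whether samples came from pooled or separate mice are not given in the sources used here, so a p-value covers only how these samples scatter, which may be technical. The table's headers name the groups ILC2 deficient and WT. The first was taken as Klrg1Cre and the second as control, a link that the labels do not state. A lack of group 2 innate lymphoid cells (ILC2), a loss of Gata3 within the T cells and the Cre allele itself cannot be told apart in this design.

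GATA3 is the zinc finger factor that specifies Th2 cells and keeps the genes for interleukins 4, 5 and 13 open. STAT6 is activated by interleukin-4 and raises Gata3, while MAF, together with JUNB, BATF and IRF4, binds the cytokine genes, BATF and JUNB as a dimer that joins IRF4 on DNA. PPARG is a lipid-sensing nuclear receptor that supports Th2 effector function in tissue, BHLHE40 promotes cytokine production in helper T cells, NFIL3 tunes cytokine output, and GFI1 supports the growth of Th2 cells. In this design the question was how the transcriptome of lung Th2 cells differs between these genotypes.

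The stretch before a gene's start site is shown for 3 of these genes. Gata3 is the floxed gene, while Junb and Batf encode partners in 1 complex that differed in how their libraries spread. The bases are from RefSeq on build GRCm38.p6, which is not the mm9 build of the authors' reads, and are written 5′ to 3′ on the gene's own strand, without bases in annotated exons of protein-coding genes. Capitals mark matches to a binding motif of a member's protein.
Gata3, chr2:9878601-9878850, minus strand: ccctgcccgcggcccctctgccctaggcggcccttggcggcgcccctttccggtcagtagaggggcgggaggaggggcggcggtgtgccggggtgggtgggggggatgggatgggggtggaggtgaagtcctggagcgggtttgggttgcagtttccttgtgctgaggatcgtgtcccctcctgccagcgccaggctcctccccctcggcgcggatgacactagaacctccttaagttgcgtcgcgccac
Junb, chr8:84978749-84978998, minus strand: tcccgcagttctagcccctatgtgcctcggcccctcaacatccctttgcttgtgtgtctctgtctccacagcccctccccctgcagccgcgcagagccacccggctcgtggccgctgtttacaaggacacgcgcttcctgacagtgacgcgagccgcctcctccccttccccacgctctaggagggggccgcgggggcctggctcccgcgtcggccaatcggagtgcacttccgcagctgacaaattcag
Batf, chr12:85686470-85686668, plus strand: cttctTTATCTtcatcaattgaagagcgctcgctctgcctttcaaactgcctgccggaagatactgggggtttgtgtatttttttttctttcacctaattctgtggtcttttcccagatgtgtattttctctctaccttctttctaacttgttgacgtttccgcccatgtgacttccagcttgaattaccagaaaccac

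Motifs were searched on both strands in the 250 bases before each start site of the 8 members with an entry, 11 windows in all. Without exon bases, the Batf stretch above holds 199 bases, from -250 to -52, and not the full 250. The GATA motif was NGATAN with A or T as its first letter and A or G as its last, and 26.6% of all 32817 windows of that length held it. The others were the AP-1 motif TGANTCA (6.75% of windows), the STAT6 motif TTCNNNNGAA (5.85%), the interferon regulatory factor motif GAAANNGAA (7.12%), the E-box CACGTG (6.02%) and the NFIL3 motif TTANNTAA (5.43%). Of the 8 members, 2 held a match. Batf had 1 GATA match at positions -245 to -240 from the RefSeq start site, the capitals above, and the second of the Pparg start sites had 1 NFIL3 match, TTATATAA, at positions -28 to -21. For the other 6 members, among them Gata3 and Junb, 0 of the searched letters lay in these windows.

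The 4 libraries had totals, worked out from the deposited means, between 14564426 and 33379572 reads. Rn45s, the precursor of ribosomal RNA, took 67.1% of the Klrg1Cre reads against 51.4% of the control reads, while all other listed genes together held 18.2% against 17.8%. The remaining reads, outside the listed genes, were 14.7% with Klrg1Cre and 30.8% in control. Over all genes the log2 ratio had a median of 0.01, so the scale, CPM (reads of a gene relative to all reads of its library), was level between genotypes for the typical gene. Of 14 T cell markers 11 were listed, summing to 1403 CPM with Klrg1Cre and 1354 CPM for control, whereas the markers of B cells summed to 1.72 against 3.18 CPM and those of mast cells and basophils to 3.67 against 2.52 CPM. Of the 10 mast cell and basophil markers, 8 were not among the listed genes. The 16 macrophage markers summed to 1731 CPM with Klrg1Cre and 2478 CPM for control, above the T cell markers in both groups. Without Chil3 that sum was 606.6 against 545.7 CPM. It includes Fabp5, at 103.5 against 88.6 CPM, which is also counted below among the targets of the 10 factors. The part of macrophage RNA in the values of the 10 factors was not tested. Il1rl1, which encodes the sorted T1/ST2 and is therefore no finding, averaged 59.1 CPM with Klrg1Cre and 67.99 CPM in control libraries. Klrg1, which gives the Cre its name, averaged 4.19 CPM with Klrg1Cre and 48.4 CPM in control libraries (the authors' adjusted p = 0.0701).

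At the level of calls in the authors' deposited table, 0 of the 10 factors passed an adjusted p of 0.05, a threshold that 0.0589% of all genes passed. The adjusted p-values of the 10 ran between 0.551 and 0.983 over all 11883 genes. By deposited means, 6 factors were higher and 4 lower in Klrg1Cre, and 50.6% of all genes were higher. Their log2 ratios lay between -0.14 and 0.41 with a median of 0.22. At an unadjusted p below 0.05 stood 2 higher factors, Gata3 and Bhlhe40, where 3.72% of all genes were higher at that level, and 0 lower factors, where 3.37% of all genes were lower.

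**Figure D1:**
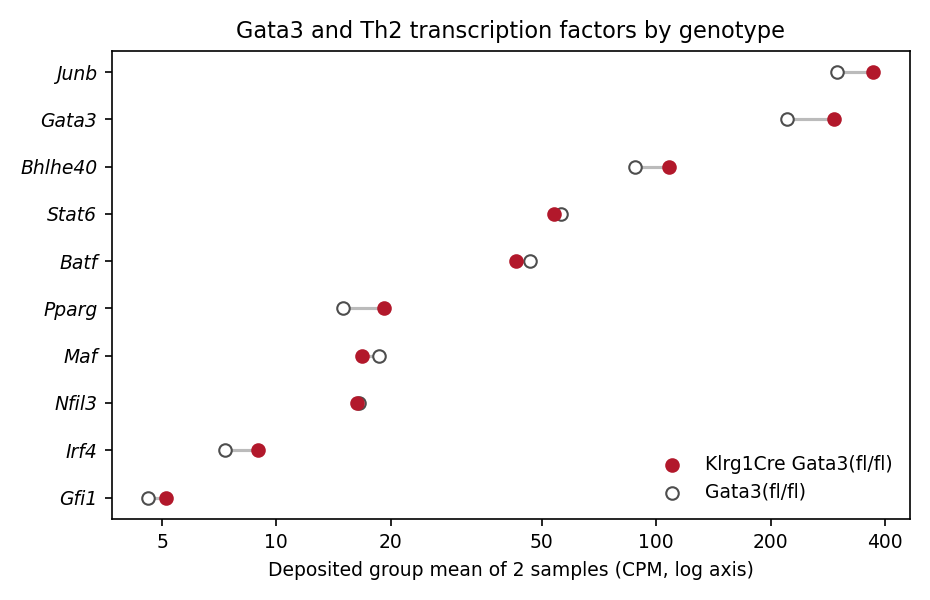
Deposited group means of the 10 factors in CPM on a log axis, 1 row per gene, with filled points for Klrg1Cre Gata3(fl/fl) and open points for Gata3(fl/fl), each a mean of 2 samples. Junb and Gata3 have the highest means and Gfi1 the lowest in both genotypes, and the points of Stat6 and Nfil3 nearly coincide.

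The levels spanned a wide range that hardly depended on genotype, as the plot of deposited means shows. Per kilobase of exon (GENCODE annotation of GRCm38), Junb had the highest level, with 206.3 CPM per kilobase in Klrg1Cre and 165.4 in control. Gata3 came next with 91.4 CPM per kilobase in Klrg1Cre and 68.9 in control. Batf followed with 44.7 and 48.8 CPM per kilobase in Klrg1Cre and control, and Bhlhe40 with 34.1 and 27.7. Stat6 stood at 14.3 CPM per kilobase in Klrg1Cre and 14.9 in control. The single libraries of Batf, from 37.7 to 60.0 CPM per kilobase, lay just above those of Bhlhe40, from 27.2 to 36.4. Pparg, at 8.07 in Klrg1Cre and 6.31 in control, and Nfil3, at 8.03 and 8.13, stood so close that the genotypes ordered them differently. Maf, Irf4 and Gfi1 were lowest in these per-kilobase levels, with 2.04 against 2.26 CPM for Maf, 1.88 against 1.53 CPM for Irf4 and 1.65 against 1.48 CPM for Gfi1. Such levels rest on gene models that may differ from those of the authors.

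Gata3 itself, the floxed gene, was not lower in Klrg1Cre. The authors' deposited table gave it 293.9 CPM for Klrg1Cre against 221.4 CPM for control, a ratio of 1.33 with a 95% interval of 1.08 to 1.63. The interval is not adjusted for the number of genes: the authors' unadjusted p was 0.0115, rank 241 of 11883 genes, and their adjusted p was 0.551. Of the 222 genes averaging 100 CPM or more, 6 had a higher log2 ratio than Gata3 and 9 a smaller p. In sorted bulk samples, a difference in RNA per cell and a difference in the share of cells that express the gene cannot be told apart. The mean counts reads over the whole gene, and the sources used here do not say which exons lie between the lox sites, so it does not check recombination. In RefSeq the Gata3 span overlaps the noncoding genes 4930412O13Rik (1.86 against 1.40 CPM) and 9230102O04Rik (0.805 against 0.457 CPM), and whether reads were counted by strand is not stated. The deposited mean of Gata3 could not be split into whole reads of single libraries, so its interval was worked out from the authors' p, and a value per library is not given.

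Stat6, the signal transducer of interleukin-4, was close between genotypes. The larger and the smaller Klrg1Cre library held 54.5 and 53.1 CPM, and the larger and the smaller control library 63.6 and 48.5 CPM. Both Klrg1Cre libraries lay between the control libraries, whose own gap exceeded the difference of the means, 53.8 in Klrg1Cre and 56.1 CPM in control. The 95% interval of the ratio was 0.756 to 1.24 (the authors' adjusted p = 0.963). In RefSeq the Stat6 span overlaps the noncoding gene Gm30989, not among the listed genes, and Nab2, which averaged 9.13 CPM with Klrg1Cre and 6.57 CPM without; reads of overlapping genes cannot be told apart here.

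Maf, the factor that drives interleukin-4 transcription in Th2 cells, also overlapped between groups. The larger and smaller Klrg1Cre libraries stood at 17.6 and 16.1 CPM, against 16.5 and 20.7 CPM for those of control. The smaller control library alone lay above the other 3. The interval of the ratio was 0.688 to 1.204, and the authors' adjusted p was 0.897.

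Of the AP-1 and IRF factors, Junb and Batf have single library values and Irf4 does not. Junb, a JUN family subunit that partners with BATF, had 294.4 CPM in the larger and 451.9 CPM in the smaller Klrg1Cre library, against 276.1 and 322.4 CPM in the larger and smaller control libraries. The smaller Klrg1Cre library stood above the other 3, and the larger one lay within the range of the control libraries. The ratio of the deposited means was 1.25 (interval of the library-based ratio 0.906 to 1.65, the authors' adjusted p = 0.778). Between the Klrg1Cre libraries, the log2 difference of Junb was 0.62, a gap that 2.68% of 2688 split genes averaging 5 CPM or more exceeded in that direction. Without the smaller Klrg1Cre library the log2 difference between genotypes was -0.019, and without the larger one it was 0.60 with an adjusted p of 0.0136 by limma. In that fit, with 1 Klrg1Cre library assumed to vary like the control libraries, 0.589% of 4242 genes were called higher, 25 genes against 4 with all libraries. The direction and the call of Junb thus rest on 1 library.

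Batf, whose product pairs with JUN proteins and recruits IRF4, held 38.7 and 46.7 CPM in the larger and smaller Klrg1Cre libraries, against 35.98 and 57.3 CPM in those of control. The control libraries enclosed both Klrg1Cre libraries. The log2 difference between the control libraries was 0.67, against a median absolute difference of 0.19 over those 2688 genes. The interval of the ratio was 0.670 to 1.31, and the authors' adjusted p was 0.947. Irf4, induced by T cell receptor signals in proportion to their strength, was low, at 8.94 CPM for Klrg1Cre and 7.31 CPM for control by deposited mean. Its ratio of 1.22 had an interval of 0.812 to 1.84 and an authors' adjusted p of 0.836, and its mean could not be split into libraries.

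Bhlhe40, a basic helix-loop-helix factor that represses Il10 in helper T cells, was the 1 factor of the 6 with single library values whose groups did not overlap. It held 115.2 and 100.6 CPM in the larger and smaller Klrg1Cre libraries, against 89.4 and 86.1 CPM in those of control. Both Klrg1Cre libraries were above both control libraries, an order found in 19.3% of the 5351 genes with such values, while 18.3% had both below and 0 of the 6 factors did. The ratio of the deposited means was 1.23, with an interval of the library-based ratio of 0.998 to 1.51. The authors' unadjusted p was 0.0458 and their adjusted p 0.698. In limma, the log2 difference was 0.29 with a standard error of 0.13 and an adjusted p of 0.643, and 0.165% of the 4242 genes fitted were called in either direction, 0 of the 6 factors among them. Its unadjusted p in limma was 0.0518, and 0 of the 6 factors had one below 0.05. With 2 libraries per group an exact two-sided permutation test of any single factor cannot go below 0.333. In RefSeq, Bhlhe40 overlaps the noncoding gene 0610040F04Rik, not among the listed genes.

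**Figure D2:**
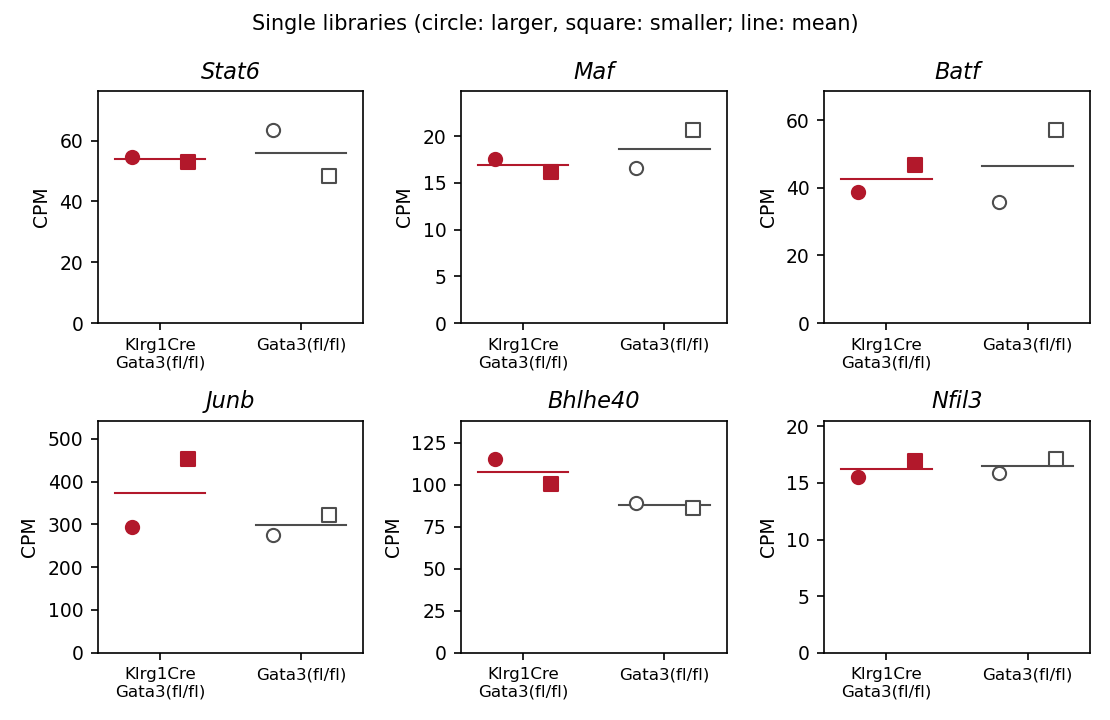
CPM of the 6 factors whose deposited means split into whole reads, 1 panel per gene with its own axis from 0, Klrg1Cre Gata3(fl/fl) at left and Gata3(fl/fl) at right. Circles are the larger and squares the smaller library of a genotype, and lines are means. The groups separate for Bhlhe40 alone, the smaller Klrg1Cre library of Junb stands at 451.9 CPM, and Batf is spread most among the control libraries.

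Pparg averaged 19.2 CPM with Klrg1Cre, against 15.01 CPM for control. Its ratio of 1.28 had an interval of 0.988 to 1.66, with an unadjusted p of 0.0597 and an adjusted p of 0.709 from the authors. Pparg is also a defining factor of alveolar macrophages, so macrophage markers were read beside it. All 16 macrophage markers were listed, 11 of them higher and 5 lower in Klrg1Cre, and their summed level was 1731 CPM in Klrg1Cre against 2478 CPM in control, most of it from Chil3 at 1124 against 1932 CPM. Without Chil3 the sum was 606.6 against 545.7 CPM. Of the 16, 6 (Marco, Car4, Siglecf, Krt79, Fabp4 and Ear2) were singled out after their values were seen, so their shared direction is no finding. They summed to 7.65 CPM in Klrg1Cre and 4.23 CPM in control, and 2 of them, Marco and Krt79, were listed at 0 in control. These 6 were all higher in Klrg1Cre but low, at most 2.50 CPM in Klrg1Cre and 1.78 CPM in control, whereas Chil3, Mrc1, Adgre1, Csf1r and Itgax of the same 16 markers were lower. The part of such cells in the Pparg difference was not tested.

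Nfil3, which encodes a basic leucine zipper repressor, had nearly equal means. The larger and smaller libraries stood at 15.6 and 16.96 CPM for Klrg1Cre, against 15.9 and 17.1 CPM for control, so the groups interleaved and each smaller library was above its larger partner. The interval of the ratio was 0.759 to 1.28, and the authors' adjusted p was 0.983. Gfi1, a zinc finger repressor, was the least abundant of the factors at 5.11 CPM in Klrg1Cre and 4.60 CPM in control. Its interval ran from 0.758 to 1.63 and its adjusted p was 0.920. The mean of Gfi1 corresponds to about 74 reads in the smaller Klrg1Cre library, against about 4281 reads for Gata3. Counting error is thus relatively largest for Gfi1. Its standard error, 0.245 on the log2 scale, was nevertheless below that of Irf4, 0.262.

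**Figure D3:**
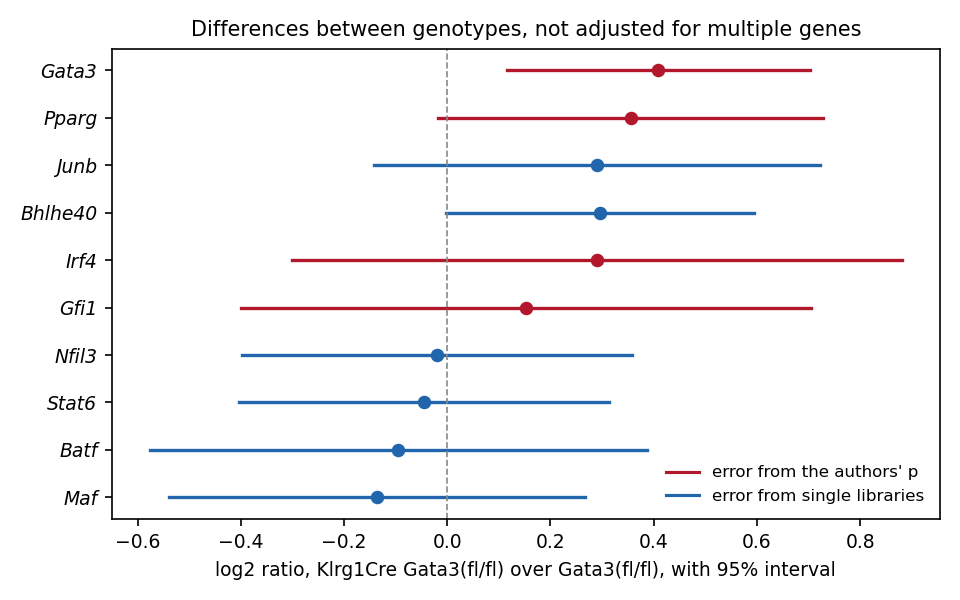
Log2 ratio of Klrg1Cre Gata3(fl/fl) over Gata3(fl/fl) with its 95% interval for the 10 factors, not adjusted for the number of genes. Red intervals were worked out from the authors' p and blue ones from single libraries, where the point is the difference of mean log2 values. The interval of Gata3 lies above 0, those of Bhlhe40 and Pparg just reach 0, and the other 7 span 0 widely.

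The factors did not share 1 direction. Of the 6 with single library values 2 had higher means in Klrg1Cre, whereas all 4 without them (Gata3, Pparg, Irf4 and Gfi1) were higher. The median log2 ratio of the 6 was -0.04, against 0.22 for all 10. Over the libraries of the 6, the median log2 difference was -0.03, and it lay between -0.05 and 0.13 when 1 library was left out, with 0.13 without the smaller control library and 0.04 without the larger library of either genotype. Genes with and without single library values had the same median over the whole table, 0.01. The plot of all genes sets the 10 ratios among genes of like abundance.

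**Figure D4:**
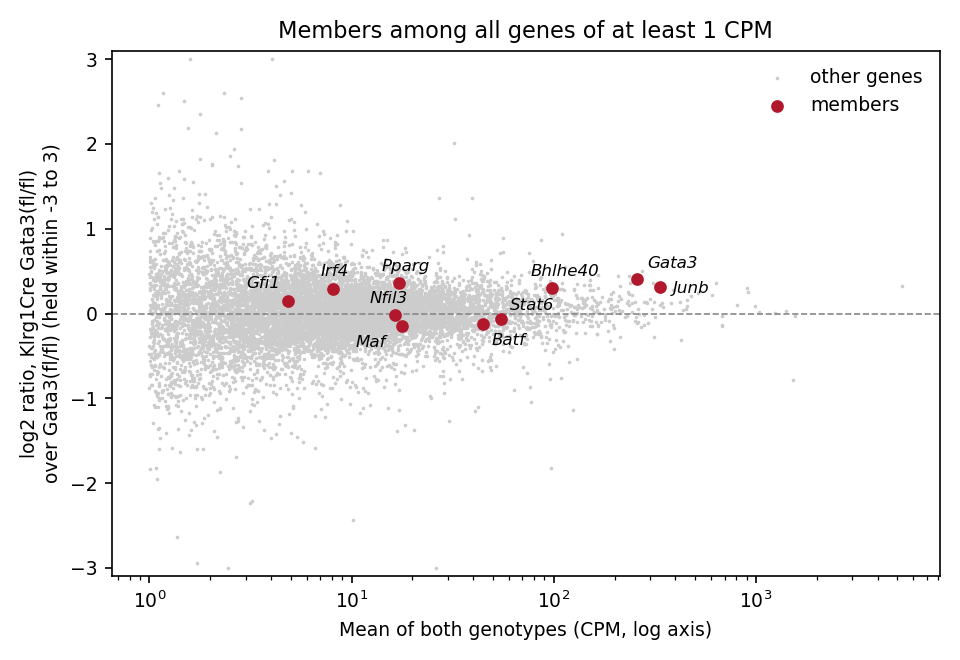
Log2 ratio of Klrg1Cre Gata3(fl/fl) over Gata3(fl/fl) against the mean of both genotypes in CPM (log axis) for genes of at least 1 CPM, with Rn45s left out. Grey points are single genes and red points the 10 factors. Ratios past 3 in either direction are drawn at 3. Gata3 lies at a log2 ratio of 0.41, while Maf, Batf, Stat6 and Nfil3 lie within the dense band just under 0.

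The genes around these factors were read in 6 lists, chosen with earlier results of these data known, of which 121 of 135 genes were listed. None of the 121 passed an adjusted p of 0.05, which 0.0589% of all genes passed. At an unadjusted p below 0.05, 10 (8.26%) were higher and 9 (7.44%) lower, where 3.72% of all genes were higher and 3.37% lower. Their median log2 ratio was -0.06. Of the GATA cofactors and chromatin partners, 16 of 19 were listed, 7 higher and 9 lower, and 0 had an unadjusted p below 0.05. The other GATA genes with a row were near the floor: Gata1 had 0.176 CPM in Klrg1Cre against 0.399 CPM in control, and Gata2 0.584 against 0.0470 CPM.

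Receptors and signals upstream of GATA3 and STAT6 had lower means in 19 of 27 genes, all of them listed. At an unadjusted p below 0.05, 3 were higher and 2 lower, where 3.72% of all genes were higher and 3.37% lower. Both Klrg1Cre libraries lay above both control libraries in 19.3% of the 5351 genes with such values, and below in 18.3%. Nfkb1, an NF-kappaB subunit gene that T cell receptor signals use to raise Gata3, stood at 113.3 and 110.3 CPM in the Klrg1Cre libraries against 59.5 and 62.8 CPM in the control libraries, with an adjusted p of 0.0635. The Notch receptor gene Notch2 had 57.4 and 46.6 CPM in Klrg1Cre against 39.6 and 37.0 CPM in control. Its nuclear partner Rbpj had means of 54.4 against 39.2 CPM, and the adjusted p was 0.604 for Notch2 and 0.606 for Rbpj. Of the interleukin-2 receptor genes, 2 had lower means. Il2rb stood at 89.6 and 96.7 CPM in the Klrg1Cre libraries against 119.3 and 125.0 CPM in the control libraries (adjusted p = 0.551). Il2ra had means of 19.5 against 27.6 CPM (adjusted p = 0.698). The Il2ra libraries held 17.0 and 22.1 CPM in Klrg1Cre against 22.9 and 32.4 CPM in control. The shared chain gene Il2rg had 211.7 CPM in Klrg1Cre against 198.9 CPM in control (adjusted p = 0.907).

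Among partners and rivals of the AP-1, MAF and IRF factors, 10 of 23 listed genes were higher and 13 lower in Klrg1Cre. Fos, the immediate early partner of JUN proteins, was the 1 gene of these 23 at an unadjusted p below 0.05. At that level 3.72% of all genes were higher and 3.37% lower. Fos had 68.7 and 71.6 CPM in the Klrg1Cre libraries against 37.3 and 47.3 CPM in the control libraries (the authors' adjusted p = 0.209). Of 15 listed nuclear receptor and coregulator genes around PPARG, 7 were higher and 8 lower. Ppard, which encodes another PPAR, was at 1.32 CPM in Klrg1Cre against 0.457 CPM in control, with an adjusted p of 0.702. The Ppard libraries held 0.846 and 1.79 CPM in Klrg1Cre against 0.539 and 0.375 CPM in control. Of 17 listed targets of the 10 factors, 8 were higher and 9 lower with a median log2 ratio of -0.01. The cytokine genes Il13 (12.4 against 6.33 CPM) and Il5 (12.4 against 5.08 CPM) were higher and Ecm1 (27.9 against 40.8 CPM) was lower at an unadjusted p below 0.05, with adjusted p of 0.265, 0.289 and 0.515.

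Among 23 listed regulators of other helper T cell fates, 3 were higher and 6 lower at an unadjusted p below 0.05, a level that 3.72% of all genes reached as higher and 3.37% as lower. Foxp3, Ikzf4 and Ikzf2 encode factors of regulatory T cells. Their means were 50.6 against 104.6 CPM, 19.7 against 37.8 CPM and 16.5 against 32.9 CPM in Klrg1Cre against control. The Ikzf2 libraries were spread widely, with 10.8 and 22.2 CPM in Klrg1Cre against 26.5 and 39.2 CPM in control. Prdm1, which encodes BLIMP-1, had 21.1 and 22.0 CPM in the Klrg1Cre libraries against 31.5 and 30.8 CPM in the control libraries. Klf2 had 4.19 and 5.56 CPM in Klrg1Cre against 1.62 and 2.53 CPM in control, and Zeb2 means of 26.3 against 17.4 CPM. Adjusted p-values of these 6 genes lay between 0.321 and 0.606, so 0 of them passed. The 10 markers of regulatory T cells all had lower means in Klrg1Cre, with a summed level of 213.5 against 389.4 CPM and a median log2 ratio of -1.06. At the authors' unadjusted p below 0.05, 9 of these 10 were lower and 0 higher, where 3.37% of all genes were lower and 3.72% higher. Of the 10, 0 passed an adjusted p of 0.05, and the authors' lowest adjusted p among them was 0.131. Foxp3, Ikzf4, Ikzf2 and Il2ra are counted both there and in the lists above. Such cells also express Gata3, Irf4, Batf and Maf, and the part of such cells in the values of these 4 genes was not tested.

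**Figure D5:**
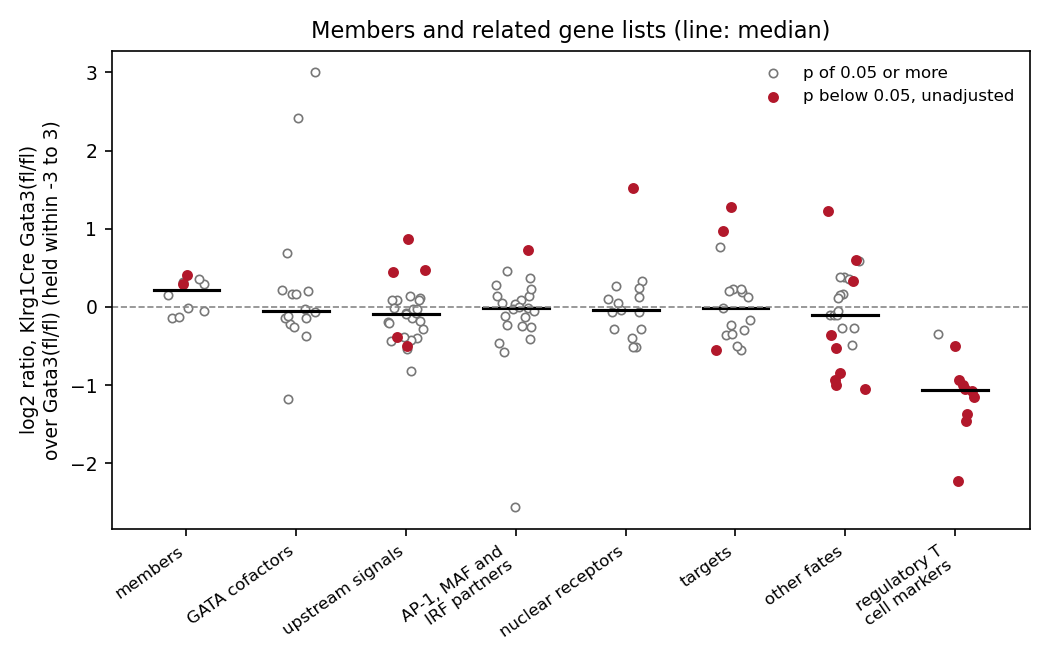
Log2 ratio of Klrg1Cre Gata3(fl/fl) over Gata3(fl/fl) for the 10 factors, the 6 lists around them and the markers of regulatory T cells. Each point is a gene, filled where the authors' unadjusted p was below 0.05, and lines are medians. The lists are spread on both sides of 0, whereas the markers of regulatory T cells all lie below it, with a median of -1.06.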

How the data were processed

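RNA of 4 samples was sequenced. The submitters' processing notes name STAR, Partek and build mm9 without versions; the counting and the authors' model are not given in the sources used here. The deposited means are CPM, averaged by the authors over the 2 libraries of a group; their steps fit an added 0.0001 CPM. The deposited ratio is the quotient of these means and the deposited fold change, a score, is that ratio with a sign. The deposited adjusted p-values equal a Benjamini-Hochberg adjustment over all 11883 genes. The deposited signal per gene equals 2 times the sum of both means and was not used.

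Calls are the authors', at an adjusted p of 0.05. Means of 5351 genes (45.0%) could be written in 1 way as whole reads of both libraries to within 1e-09 reads, as tested on simulated data; which library is which sample is unknown. On 4242 of them with at least 1 CPM, limma 3.58.1 (R 4.3.3, trended variance) was run on log2(CPM + 1). With log2(CPM + 0.0001), chosen after seeing the data, limma ranked genes nearly as the authors' p did (Spearman's rho 0.9998 across genes, not independent replicates); intervals of the 6 split factors come from this second fit. Those of the other 4 come from the authors' p with 9.2 degrees of freedom, estimated on 2554 split genes; for 1626 genes with p below 0.6, errors so obtained were 0.863 to 1.11 times the library-based ones (5th to 95th percentile). The list of genes most like Gata3 over libraries was not made, since Gata3 could not be split.

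Members and lists were chosen with earlier results of these data known. The rule for named genes took all members and, per list, up to 6 genes with the smallest p below 0.05, and the most abundant gene of a marker list. The text names the members and the genes so taken from the 6 lists around them; of the marker lists it gives counts and sums, and leaves most genes that the rule allows unnamed. Gata1, Gata2, Il2rg, Id2, Id3, the genes overlapping members, Klrg1 and Rn45s were named after their values were seen. So were the 6 macrophage markers summed apart, 4 further macrophage markers and Fabp5.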

Additional observations from a re-analysis of the deposited data

How the results depend on the processing

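The log2 ratio of Gata3 was between 0.38 and 0.41 with other pseudocounts or scalings, and the count of factors called stayed at 0 when p was adjusted over genes of at least 1 or 5 CPM and in limma with a pseudocount of 1, 5 or 0.0001, the last chosen after seeing the data. The median log2 ratio of the factors was between 0.13 and 0.29 with these pseudocounts and scalings or over factors of at least 5 CPM, but -0.039 over the 6 factors with single library values, also chosen after seeing the data. Leaving out 1 library at a time, limma called between 0 and 1 of those 6, the 1 being Junb. The log2 difference then ran from -0.019 to 0.60 for Junb, from -0.42 to 0.23 for Batf and from -0.28 to 0.024 for Maf. It ran from -0.24 to 0.15 for Stat6, from -0.077 to 0.040 for Nfil3 and from 0.20 to 0.39 for Bhlhe40. Bhlhe40 alone of the 6 kept its sign in all 4 fits. That was fixed in advance by its groups not overlapping, so it adds no evidence. Of the 5351 split genes, 19.3% had both Klrg1Cre libraries above both control libraries and 18.3% had both below. The cause of the spread between libraries was not tested. Gata3, Pparg, Irf4 and Gfi1 could not be recomputed without a library. No paired analysis was possible because no column carries a replicate number.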

Other observations

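Of the regulators of other T cell fates counted above, 2 more are given here, chosen after their values were seen. Id2, which encodes an inhibitor of E proteins, was the most abundant gene of the list of other fates, with 177.9 and 160.2 CPM in the larger and smaller Klrg1Cre libraries against 136.3 and 131.6 CPM in those of control (the authors' unadjusted p = 0.0228, adjusted p = 0.612). Id3, which encodes a relative of ID2, averaged 1.67 CPM with Klrg1Cre and 3.01 CPM in control libraries. Its unadjusted p in the authors' deposited table was 0.0484, and it did not pass adjustment.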
